A study of Mus musculus with 6 samples.

Results

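The 4 nuclear factor I genes Nfia, Nfib, Nfic and Nfix and 5 further transcription factors of astrocytes, Zbtb20, Lhx2, Rorb, Emx2 and Npas3, were followed in RNA of cells sorted from the mouse olfactory bulb with and without the factor Sox9. The 9 genes were chosen by symbol, out of 24421 genes listed, and all 9 were present in every library. The 6 libraries came from 3 Sox9fl/fl male mice (labelled Sox9 KO) and 3 male C57BL/6J mice without the floxed allele (labelled WT, here control). All 6 mice, controls included, received an injection into the bulb of AAV-GFAP-iCre-P2a-TurboRFP, a virus in which the Gfap promoter drives both the Cre recombinase and the red protein TurboRFP, and bulbs were collected after 4 weeks. Cells were gated by light scatter for singlets and sorted by TurboRFP fluorescence. The study did not check their purity by post-sorting, and states that known cell-type markers in the RNA-seq served for this. The age of these mice was not stated in the labels, and the study's methods speak of adult mice in general.

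Nuclear factor I (NFI) proteins bind DNA as dimers of any of the 4 family members, on a palindrome built from the half-site TTGGC. In the developing nervous system Nfia is induced downstream of Sox9, its protein pairs with SOX9, and together they switch on early glial genes, while Nfib and Nfix act in the maturation of glia and neurons and Nfic is best known from tooth roots. Zbtb20 is a zinc finger repressor that favours astrocyte formation in the cortex, Lhx2 a LIM homeodomain factor of forebrain progenitors, Emx2 a homeodomain factor that patterns the dorsal forebrain, Rorb an orphan nuclear receptor of the ROR family, and Npas3 a factor of the bHLH-PAS class that binds DNA with an ARNT partner.

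The genes lie on 7 chromosomes of the mouse genome (build GRCm38, the mm10 of the alignment; GENCODE M21 annotation). Nfia (chr4:97772734-98118874, plus strand) and Nfib (chr4:82290173-82705750, minus strand) share chromosome 4. Nfic lies at chr10:81396186-81455635 and Nfix at chr8:84699876-84800344, both on the minus strand. Zbtb20 (chr16:42875881-43642602), Lhx2 (chr2:38339281-38369733), Emx2 (chr19:59458372-59465357) and Npas3 (chr12:53248677-54072175) are on plus strands and Rorb (chr19:18930605-19111196) is on the minus strand. Because 8 of the members fell together, the 250 bases upstream of their annotated starts (RefSeq, GRCm38.p6) were read on both strands for the NFI half-site TTGGC, which reads GCCAA when it lies on the opposite strand, and for the SOX core ACAAT, which there reads ATTGT. Windows were found for 8 of the 9 genes, 13 windows in all. TTGGC was in 4 of the 13, against 41.5% of 32817 RefSeq promoter windows of the same length, and ACAAT in 3 of the 13, against 27.7%. The whole NFI palindrome, the half-site followed after 5 bases of any kind by its reverse complement, was in 0 of the 13 and in 0.0366% of all windows. Of the 3 members with the largest falls, Lhx2 and Rorb have 2 windows each and Npas3 has 1, and the window furthest upstream in each gene is shown here, with the half-site in capitals on either strand. The Lhx2 window shown (chr2:38339031-38339280, plus strand) held 1 half-site, the Rorb window shown (chr19:19111197-19111446, minus strand) held 3, and the Npas3 window (chr12:53248182-53248431, plus strand) held 0, with no ACAAT in any of these 3. The windows not shown, of inner starts, held no TTGGC in Lhx2 (chr2:38351058-38351307) or Rorb (chr19:19001118-19001367), and the one of Rorb held 1 ACAAT. A match is a run of letters and not a measured site.
Lhx2: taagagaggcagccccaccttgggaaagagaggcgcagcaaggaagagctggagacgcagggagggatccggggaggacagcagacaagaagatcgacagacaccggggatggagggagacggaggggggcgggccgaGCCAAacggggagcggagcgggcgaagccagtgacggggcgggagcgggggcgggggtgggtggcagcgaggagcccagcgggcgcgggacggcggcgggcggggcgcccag
Rorb: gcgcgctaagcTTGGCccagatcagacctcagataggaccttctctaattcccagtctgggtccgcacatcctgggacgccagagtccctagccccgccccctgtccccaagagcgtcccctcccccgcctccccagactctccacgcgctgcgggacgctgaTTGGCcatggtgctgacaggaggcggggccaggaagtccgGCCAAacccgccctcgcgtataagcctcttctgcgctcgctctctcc
Npas3: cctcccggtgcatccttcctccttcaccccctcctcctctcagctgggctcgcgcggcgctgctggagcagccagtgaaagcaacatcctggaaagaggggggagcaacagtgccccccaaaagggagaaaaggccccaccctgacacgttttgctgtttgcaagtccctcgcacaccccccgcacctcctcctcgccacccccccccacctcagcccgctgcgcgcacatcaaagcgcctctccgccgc

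Values are normalized counts, reads on a gene divided by 1 size factor per library, and 18242129 to 86906527 reads fell on genes per library (18242129 to 44686863 in controls, 22469211 to 86906527 in KO). One read was worth 0.395 to 1.58 normalized counts. Sox9 itself, the deleted gene, read 5185, 6562 and 4921 in controls and 52.6, 64.3 and 57.7 in KO (log2 fold change −6.54, SE 0.15, adjusted p = 2.5e-09 by limma). The sorted pools differed in their cell markers. Summed counts of 12 astrocyte markers ran from 631132 to 702204 in controls and from 42572 to 55183 in KO, with 12 of 12 called lower. Those of 12 microglia and macrophage markers ran from 185788 to 208895 in controls and from 659524 to 769229 in KO, with 12 of 12 called higher. In each KO library the microglia and macrophage sum was above the astrocyte sum, and no marker of either list was at 0 in any library. Of the neuron markers 11 of 12 were called lower and 1 was not called (sum 6.35-fold lower). All 8 oligodendrocyte markers and all 5 oligodendrocyte precursor markers were called lower. These calls use the thresholds given below, which 28.8% of all genes tested met as lower in KO and 22.2% as higher. In such bulk pools fewer cells of a type and less RNA per cell cannot be told apart, and the part of these marker shifts in the values below was not tested.

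Of the 9 factors 8 fell in the Sox9 KO pools, from 2.01-fold for Nfia to 28.8-fold for Lhx2, and Nfic was the exception. A gene was called at an adjusted p under 0.05 (limma, adjusted over the 18413 genes tested) with a change of at least 1.5-fold, which 28.8% of those genes met as lower in KO and 22.2% as higher. In the same 8 factors each KO library was below each control library, a pattern held by 34.7% of the genes tested, while 32.4% had each KO library above each control. The median log2 fold change was −2.79 over the 9 factors, −1.50 over the 4 NFI genes and −3.63 over the other 5, beside −0.07 over all genes tested. The call of 8 lower and 0 higher was the same under all 19 alternative settings, which included leaving out each library in turn.

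**Figure D1:**
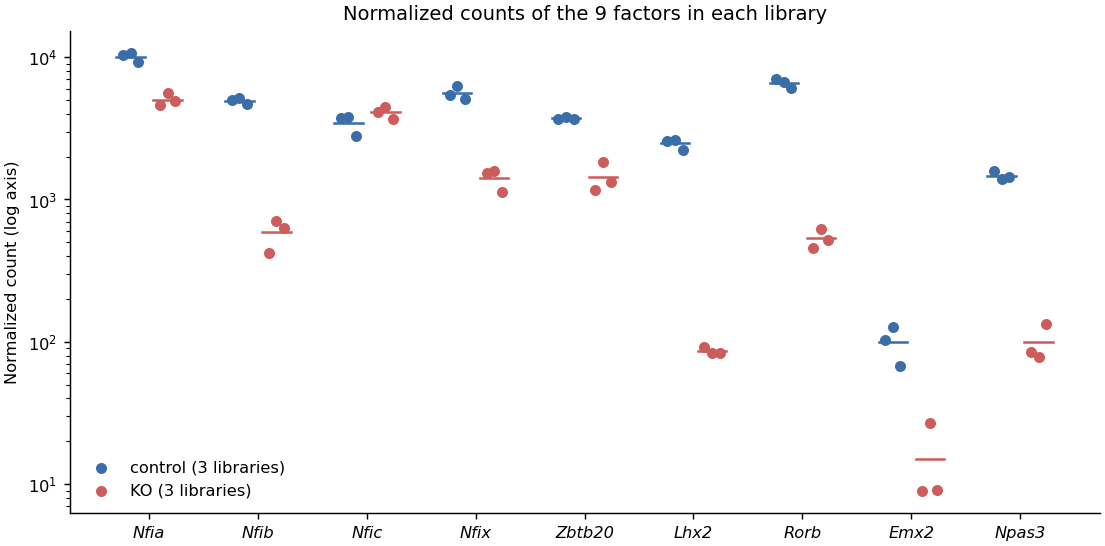
Normalized counts of each factor on a log axis, 1 point per library and a bar at the group mean, for 3 control and 3 Sox9 KO libraries. The groups stand apart in 8 panels, widest for Lhx2 (2243 to 2616 against 83.3 to 91.3), and overlap for Nfic.

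Among the NFI genes, Nfia, the family member closest to Sox9 in the textbook account of glial onset, kept the largest part of its level among those that fell. Counts of 10424, 10677 and 9216 in controls stood against 4589, 5580 and 4922 in KO. The groups did not overlap, and the KO mean of 5031 ± 504 was 49.8% of the control mean of 10106 ± 781 (SD, n = 3 each), with a log2 fold change of −1.01 (SE 0.10, 95% CI −1.23 to −0.78, adjusted p = 1.1e-05 by limma). Of all genes tested 28.8% had a lower log2 fold change than Nfia.

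Nfib fell furthest in the family. Its counts were 4970, 5168 and 4685 in controls and 420, 709 and 635 in KO, so that the highest KO library was far below the lowest control. The means were 4941 ± 243 and 588 ± 150, an 8.41-fold difference (log2 fold change −3.10, SE 0.17, 95% CI −3.48 to −2.72, adjusted p = 1.4e-07 by limma). Nfix stood between them. It read 5439, 6258 and 5101 in controls and 1546, 1598 and 1129 in KO, with no overlap. Its means of 5599 ± 595 and 1424 ± 257 differed 3.93-fold (log2 fold change −1.99, SE 0.14, 95% CI −2.30 to −1.67, adjusted p = 7.8e-07 by limma).

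Nfic, which is expressed in many tissues, was the only one of the 9 factors not called in either direction. It read 3742, 3781 and 2795 in controls and 4140, 4473 and 3655 in KO, and the lowest KO library lay between the controls. The log2 fold change was 0.26 (SE 0.13, 95% CI −0.03 to 0.55, adjusted p = 0.11 by limma), and its sign turned to −0.034 with quantile normalization and to −0.069 with scaling to the total without the ribosomal RNA gene Rn45s. The interval leaves room for a rise of up to 0.55 on the log2 scale but for no fall like those of its 3 relatives.

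Lhx2 had the largest fall of the 9 factors. Its 3 control libraries held 2589, 2616 and 2243 and its 3 KO libraries 91.3, 83.3 and 83.6. The KO libraries were close to one another, at a mean of 86.1 ± 4.57 or 3.47% of the control mean of 2483 ± 208 (log2 fold change −4.83, SE 0.13, 95% CI −5.12 to −4.54, adjusted p = 4.4e-09 by limma). Among the 12 astrocyte markers, 1 (Fgfr3, a receptor for fibroblast growth factors) fell further.

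Npas3 was next, with 1583, 1402 and 1433 in controls and 85.4, 78.2 and 134 in KO. The third KO library was the highest of its group and still below every control. The means were 1472 ± 96.7 and 99.1 ± 30.2, 14.9-fold apart (log2 fold change −3.92, SE 0.20, 95% CI −4.36 to −3.47, adjusted p = 9.0e-08 by limma). Rorb, the nuclear receptor, read 7060, 6661 and 6059 in controls and 457, 624 and 521 in KO. Its means of 6593 ± 504 and 534 ± 84.3 were 12.4-fold apart, with no overlap (log2 fold change −3.63, SE 0.12, 95% CI −3.91 to −3.36, adjusted p = 1.1e-08 by limma).

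Zbtb20, the repressor, fell less than the other 4 factors outside the NFI family. Controls were tightly grouped at 3699, 3797 and 3649, and KO libraries read 1166, 1833 and 1320. The means of 3715 ± 75.2 and 1440 ± 349 were 2.58-fold apart and the groups did not overlap (log2 fold change −1.39, SE 0.15, 95% CI −1.72 to −1.06, adjusted p = 1.6e-05 by limma). Emx2 was the least abundant of the 9 factors and the least precisely measured. It read 104, 127 and 67.8 in controls, from 71, 184 and 43 reads, and 8.93, 26.8 and 9.11 in KO, from 9, 68 and 6 reads. The second KO library was the highest of its group and below every control. The fall was 6.64-fold by the means of 99.4 ± 29.7 and 15.0 ± 10.3 (log2 fold change −2.79, SE 0.47, 95% CI −3.84 to −1.73, adjusted p = 0.00048 by limma).

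**Figure D2:**
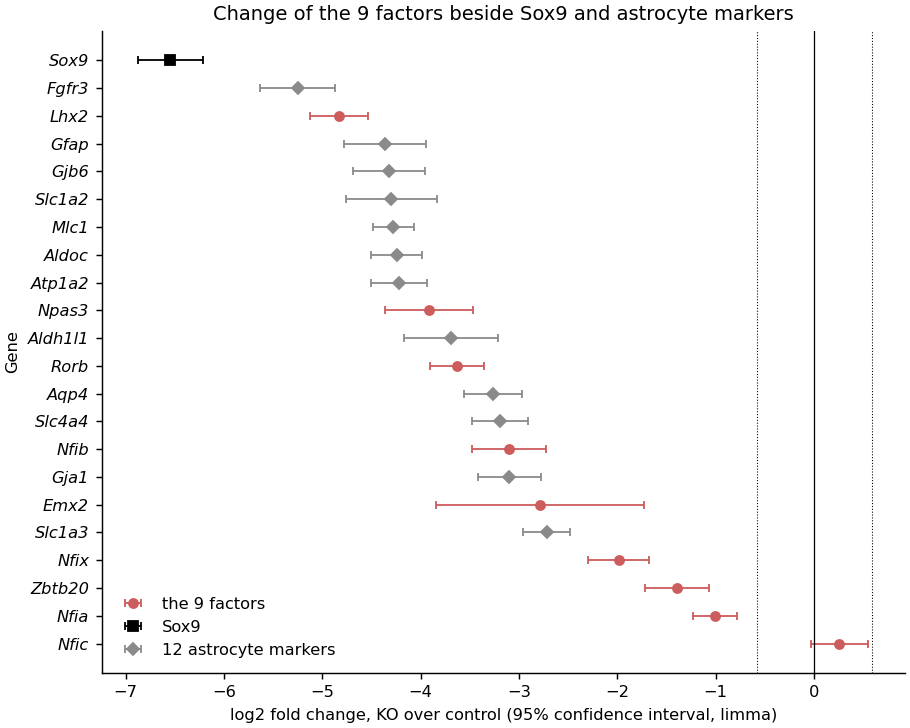
Log2 fold change of KO over control with its 95% confidence interval (limma) for the 9 factors, Sox9 and 12 astrocyte markers, sorted by size, with dotted lines at 1.5-fold. Lhx2 (−4.83), Npas3 (−3.92) and Rorb (−3.63) lie among the markers, Nfix (−1.99), Zbtb20 (−1.39) and Nfia (−1.01) lie to the right of all 12, and the interval of Nfic spans 0.

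Reads of neighbouring or related genes could have entered these counts. Only the shared sequence was measured, and it does not give the share of reads. In the GENCODE M21 annotation 8 genes overlap exons of a member, 7 of them on the opposite strand, and the strand setting of the counting is not known here. The widest overlap by share was Emx2os, an antisense RNA that covers 8.79% of the exon bases of Emx2. Emx2os moved the same way, from 74.5 ± 25.2 in controls to 13.4 ± 17.5 in KO (log2 fold change −3.13, SE 0.78, adjusted p = 0.0054 by limma), and reads of the shared bases cannot be told apart without strand. No 50-base window of one member occurs in another member. At most 0.187% of the windows of any member (Nfix) occur in any other gene, the overlapping genes left out. This holds although the NFI genes are related in sequence, which matters for telling the 4 apart. Coding runs were compared on 1 transcript per NFI gene, that with the longest coding sequence. The longest run shared by a pair, in Nfic and Nfix, was 32 bases long. The run common to Nfia and Nfib was 17 bases long and also lies in Nfic and Nfix. Both are shown as the coding strand of GENCODE M21 transcripts.
Nfic and Nfix: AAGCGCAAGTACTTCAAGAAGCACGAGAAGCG
Nfia and Nfib: TGGTTCAACCTGCAGGC

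To compare levels between genes, normalized counts were divided by the kilobases of merged exons of each gene. On this scale Nfia was highest in controls at 1061 ± 81.9 per kb (SD, n = 3) and stood apart from the next gene. Nfix at 824 ± 87.5, Lhx2 at 738 ± 61.8 and Rorb at 697 ± 53.3 followed, each overlapping its neighbour in the order. Nfib at 535 ± 26.3 and Nfic at 519 ± 84.3 overlapped as well. Npas3 at 246 ± 16.2, Zbtb20 at 137 ± 2.77 and Emx2 at 34.1 ± 10.2 each stood apart from the gene above. The order was another one in the KO pools. Nfic was first at 617 ± 62.0 per kb and overlapped Nfia at 528 ± 52.9, and Nfix was apart from both at 210 ± 37.8. Nfib at 63.7 ± 16.2, Rorb at 56.4 ± 8.91 and Zbtb20 at 53.0 ± 12.8 overlapped in turn. Lhx2, among the upper genes in controls, was at 25.6 ± 1.36, above Npas3 at 16.6 ± 5.04 and Emx2 at 5.13 ± 3.53. The level per kb of Zbtb20 rests on 27.143 kb of merged exons, the longest of the 9, so its place depends on how much of that length the transcripts in these cells use.

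Since NFI proteins dimerize within the family, its makeup was taken within each library, where the scaling of the library has no effect. The sum of the 4 NFI genes, unlike their shares, does depend on that scaling. It was 2938 ± 267 normalized counts per kb in controls and 1418 ± 139 in KO, 48.3% of the control level. Nfic made up 18.8%, 18.0% and 15.9% of this sum in controls and 45.3%, 42.9% and 42.3% in KO. About level with Nfib in controls, on these exon lengths it had the largest share in each KO library, a gain of 25.9 percentage points with no overlap (exact permutation test, two-sided p = 0.10, adjusted over the 4 genes 0.133, where 0.10 is the smallest p that 3 against 3 allows). Nfib went from 18.0%, 17.7% and 19.2% to 3.30%, 4.88% and 5.28%, a difference of −13.8 points. Nfix went from 26.7%, 29.0% and 28.4% to 16.5%, 15.0% and 12.7%, a difference of −13.3 points, and both had the same exact p of 0.10 (adjusted 0.133). The share of Nfia overlapped between groups at 36.1% ± 0.69 and 37.3% ± 2.36 (SD, n = 3, exact permutation p = 0.50). Its difference of 1.15 points turned to −0.037 without KO replicate 3 and to −1.33 with exon lengths of the comprehensive annotation.

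**Figure D3:**
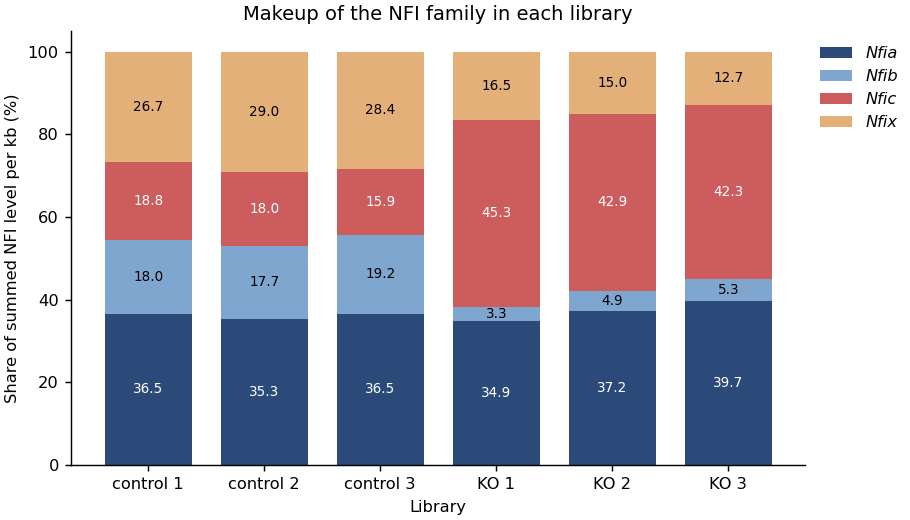
Share of each NFI gene in the summed NFI level per kb of merged exons, in percent, for each of the 6 libraries. Nfic fills 15.9 to 18.8% of the control bars and 42.3 to 45.3% of the KO bars, Nfib shrinks to 3.30 to 5.28%, and Nfia overlaps between groups.

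The unequal change within the family was also taken pair by pair, as log2 ratios inside each library. The widest was Nfib over Nfic, whose log2 ratio went from 0.54 ± 0.18 in controls to −2.83 ± 0.41 in KO, a difference of −3.36 (SE 0.26). The log2 ratio of Nfic over Nfix differed by 2.24 (SE 0.13) and that of Nfia over Nfib by 2.09 (SE 0.16). Nfia over Nfic differed by −1.27 (SE 0.11), Nfib over Nfix by −1.12 (SE 0.31) and Nfia over Nfix by 0.98 (SE 0.17). In all 6 pairs the control and KO libraries did not overlap, and each gave the smallest exact permutation p of 0.10 (0.10 after adjustment over the 6 pairs). The 6 pairs are built from the same 4 genes and are not independent. Of single genes tested, 34.7% had each KO library below each control and 32.4% above. How often pairs of other genes stand apart was not counted.

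Because the KO pools held fewer astrocyte transcripts, each factor was also set against the summed counts of the 12 astrocyte markers of the same library, given as counts per 1000 marker counts. Lhx2 fell further than that sum, from 3.70 ± 0.14 to 1.79 ± 0.32 per 1000 (log2 difference −1.04, SE 0.15), with no overlap. For Sox9 on the same scale the log2 difference was −2.76 (SE 0.10). Npas3 was at 2.20 ± 0.18 and 2.06 ± 0.68 per 1000, with overlapping groups (log2 difference −0.13, SE 0.29, exact permutation p = 0.80), and its sign turned to 0.11 without KO replicate 2. Rorb was at 9.84 ± 0.51 and 10.9 ± 0.32 per 1000 (log2 difference 0.16, SE 0.05), without overlap, and its sign turned to −0.11 when Slc1a2 and Gfap were left out of the marker sum.

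The remaining 6 factors were higher per astrocyte marker count in each KO library than in each control. The marker sum itself was 13.8-fold lower in KO, so a gene with unchanged counts is also higher on this scale. How many of all genes tested are higher on it was not counted. Nfic had the widest difference, from 5.11 ± 0.60 to 84.6 ± 11.3 per 1000 (log2 difference 4.05, SE 0.15), followed by Nfia, from 15.1 ± 0.41 to 104 ± 3.68 (2.78, SE 0.04). Zbtb20 went from 5.55 ± 0.20 to 29.3 ± 3.38 (2.40, SE 0.10) and Nfix from 8.34 ± 0.49 to 29.5 ± 6.50 (1.80, SE 0.19). Emx2 went from 0.147 ± 0.037 to 0.295 ± 0.166 per 1000 (1.00, SE 0.46, or 0.61 without KO replicate 2). Its groups barely stood apart, with a highest control of 0.180 and a lowest KO library of 0.188, from 6 reads. For Nfib the log2 difference was 0.69 (SE 0.13), or 0.42 without Slc1a2 and Gfap in the marker sum. Each of the 8 factors other than Npas3 gave the smallest exact permutation p of 0.10 (0.1125 after adjustment over the 9). Set against the single markers, Nfic did not fall, Nfia, Nfix and Zbtb20 fell less than all 12, Emx2 less than 11, Nfib less than 10, Rorb less than 8, Npas3 less than 7 and Lhx2 less than 1. In the same libraries the microglia and macrophage marker sum was 3.77-fold higher in KO, and which cells carried the remaining NFI and Zbtb20 transcripts was not tested.

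**Figure D4:**
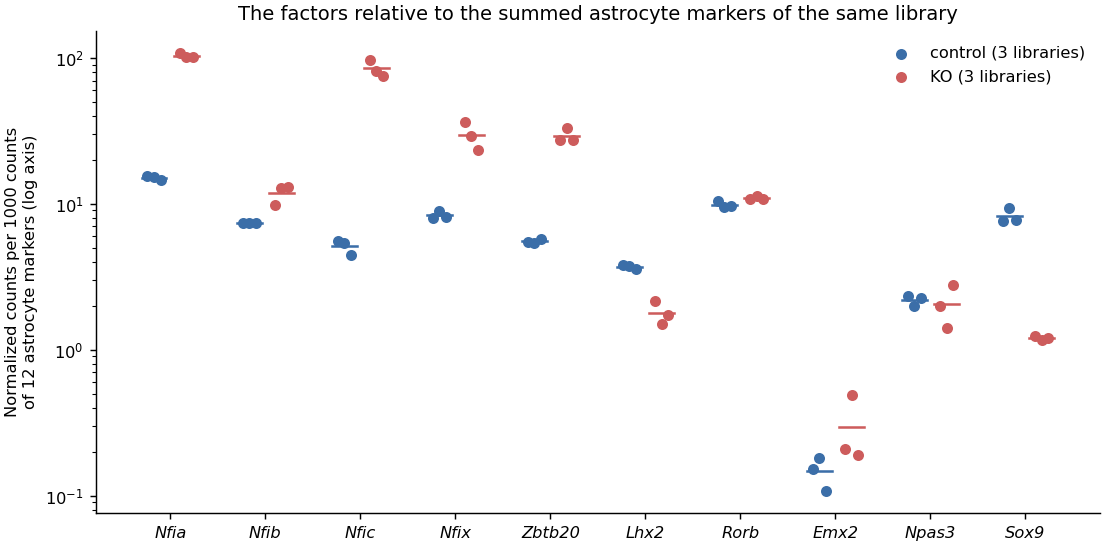
Each factor and Sox9 as counts per 1000 summed astrocyte marker counts, on a log axis, 1 point per library and a bar at the group mean. Nfic, Nfia, Zbtb20 and Nfix are higher in the 3 KO libraries, Lhx2 is lower, Npas3 overlaps, and the small gap of Rorb turns its direction without Slc1a2 and Gfap in the marker sum. The marker sum itself is 13.8-fold lower in KO.

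Close paralogues of the factors showed mixed results: 3 of the 6 tested were called lower, 0 higher and 3 were not called, with a median log2 fold change of −1.69 (Lhx9 was too low to be tested). Over all genes tested the shares called were 28.8% lower and 22.2% higher. Rora, the ROR receptor related to Rorb, read 3669, 3759 and 3635 in controls and 1124, 1184 and 1389 in KO. That is a 2.99-fold fall without overlap (log2 fold change −1.59, SE 0.10, adjusted p = 3.8e-07 by limma), smaller than the 12.4-fold of Rorb. Npas2, a clock-related factor of the same class as Npas3, fell from 270 ± 56.0 to 56.6 ± 6.68 (log2 fold change −2.22). Zbtb45 had a log2 fold change of 0.61 (adjusted p = 0.061 by limma), Npas1 of −1.79 (adjusted p = 0.078) and Emx1, the dorsal forebrain relative of Emx2, of −1.58 (adjusted p = 0.096). Without control replicate 2 Zbtb45 was called higher (log2 fold change 0.75, adjusted p = 0.048), and without KO replicate 2 Npas1 was called lower (−2.61, adjusted p = 0.015).

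Among 7 partner proteins 4 were called lower, 1 higher and 2 were not called (median log2 fold change −0.63). Calls over all genes tested were 28.8% lower and 22.2% higher. The ARNT proteins, which pair with bHLH-PAS factors such as NPAS3, went opposite ways. Arnt2 read 3523, 3506 and 3157 in controls and 190, 291 and 196 in KO, 15.1-fold lower (log2 fold change −3.93, SE 0.16, adjusted p = 2.9e-08 by limma), next to the 14.9-fold of Npas3. Arnt, the broadly expressed relative, read 1328, 1240 and 1519 in controls and 2854, 2693 and 2660 in KO, and rose without overlap (log2 fold change 1.01, SE 0.10, adjusted p = 1.1e-05 by limma). For LHX2, whose LIM domains bind the adaptor LDB1 and its relative LDB2, Ldb2 fell from 163 ± 36.2 to 20.9 ± 3.37 (log2 fold change −2.90), while Ldb1 had a log2 fold change of 0.12 (adjusted p = 0.461 by limma). Of the SSBP proteins that join LDB complexes, Ssbp3 and Ssbp2 fell, at log2 fold changes of −1.04 and −0.63, and Ssbp4 had a log2 fold change of 0.32 (adjusted p = 0.238 by limma). Ssbp2 lay close to 1.5-fold, and its call was lost without KO replicate 3 (−0.50) and without control replicate 1 (−0.56), and with TMM scaling (−0.57), edgeR (−0.56) and quantile normalization (−0.57).

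The list of 8 genes tied to NFI held 7 called lower, 0 higher and 1 not called (median log2 fold change −1.40), beside 28.8% lower and 22.2% higher over all genes. Mmd2, which SOX9 and NFIA are known to activate together in glial precursors of the spinal cord, read 8299, 8636 and 6776 in controls and 481, 660 and 608 in KO (log2 fold change −3.76, SE 0.14, adjusted p = 1.4e-08 by limma). The 2 further genes of that kind, Zcchc24 and Apcdd1, fell by less, at log2 fold changes of −1.18 and −0.94, and the call of Apcdd1 was lost without control replicate 3 (−0.88, adjusted p = 0.053 by limma). The astrocyte genes with known NFI sites in their promoters fell as well, at log2 fold changes of −4.36 for Gfap, −3.57 for S100b and −1.62 for Fabp7. Ezh2, a gene that NFI proteins are known to repress in the developing forebrain, fell by 0.75 on the log2 scale, a call lost with quantile normalization (log2 fold change −0.46). Hes1, a Notch target of the same kind, had a log2 fold change of −0.17 (adjusted p = 0.554 by limma).

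Beyond the 9 factors, 21 of 24 other astrocyte and radial glia factors were called lower, 0 higher and 3 were not called, with a median log2 fold change of −3.62. Sox9, the deleted gene, is in this list and counts in the 21 and in the median. Besides Sox9, the most abundant of those called were Id2 (log2 fold change −1.13), Hey1 (−3.72) and Tcf7l2 (−0.65). Etv5, a factor downstream of FGF receptors, had a log2 fold change of 0.00 (adjusted p = 0.977 by limma), and Trps1 one of −0.49, below 1.5-fold. Against the median of this list the falls of Nfia, Zbtb20 and Nfix were smaller, those of Lhx2 and Npas3 larger, and that of Rorb was about level. The call of Tcf7l2 was lost without KO replicate 3 (log2 fold change −0.47), without control replicate 1 (−0.54) and with edgeR (−0.58), each under 1.5-fold. Factors of microglia and macrophages went the other way, with 13 of 14 called higher and 0 lower (median log2 fold change 1.83), such as Ikzf1 (1.87), Runx1 (1.85) and Sall1 (1.75). None of the 9 astrocyte factors was called higher. Beside these lists, 28.8% of all genes tested were called lower and 22.2% higher.

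**Figure D5:**
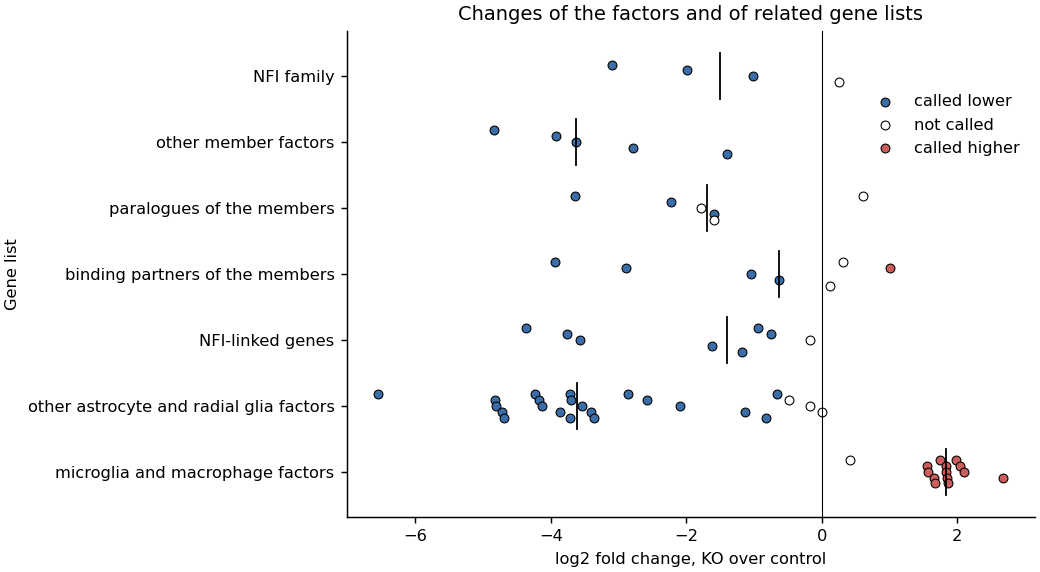
Log2 fold change of every tested gene in 7 lists, with blue points for called lower, white for not called, red for called higher and a bar at the median of each list. The NFI family spans −3.10 to 0.26, the other 5 factors −4.83 to −1.39, and the microglia and macrophage factors lie between 0.41 and 2.68.

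The genes most like each factor were found by the root mean square distance between centred log2 profiles over the 6 libraries, among 11926 genes with a mean of at least 100 normalized counts. A profile over 6 libraries in 2 groups is set mostly by the size of the group difference. For Nfia the nearest were Atrn (distance 0.039) and Glrx2 (0.050), for Nfib Scn3b (0.071) and Jam2 (0.079), and for Nfix Tcaf1 (0.083) and Slc9a3r1 (0.084). Nfic had the closest match of all 9, Atg2a at 0.022, then Cdyl at 0.038. Zbtb20 was nearest to Stxbp4 (0.047) and Agap3 (0.054), Rorb to Ctnnd2 (0.078) and Drp2 (0.085), and Npas3 to Sybu (0.058) and Lrrc75b (0.106). Lhx2, with its large fall, had looser matches in Psd2 (0.111) and Fgf1 (0.124), and Emx2, with its few reads, the loosest in Lppr2 (0.177) and Klhdc8b (0.179).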

How the data were processed

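RNA-seq was measured in 6 libraries of TurboRFP+ olfactory bulb cells (3 control, 3 Sox9 KO). Total RNA was amplified with the Trio RNA-Seq kit. Per the labels and the submitters' processing notes, the authors aligned reads with STAR 2.5.0a to mm10 and normalized counts with DESeq2 1.20.0. The deposited values are a normalized count signal, reads divided by 1 size factor per library, although named RPM. All values were whole reads within 0.01 read once the step of 1 read was known, which gave each library's depth. For the counting, annotation and strand setting were not given in the sources used here. One size factor per library keeps shifts in RNA makeup in the values, and Rn45s took 14.2 to 22.4% of the reads.

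Genes with a mean of at least 1 (18413 of 24421; 6008 left out) were tested with limma 3.58.1 on log2(value + 1) with a variance trend and Benjamini-Hochberg adjustment over all genes tested. Log2 fold changes are on this scale, which understates those of low genes. Differences given as fold, other than the 1.5-fold threshold, are ratios of group means of normalized counts. Calls needed an adjusted p under 0.05 and 1.5-fold. Shares, ratios and marker-relative levels were compared with exact two-sided permutation tests. Exon lengths came from GENCODE M21 and promoters from RefSeq. edgeR 4.0.16 and DESeq2 1.42.0 on recovered reads, other scalings, filters and pseudocounts and leaving out each library were alternatives. The procedure was tested on simulated data with few changed genes, as many up as down. That setting does not cover a shift in RNA makeup as wide as the one here. Named genes were the 9 factors, Sox9, all genes of the paralogue, partner and NFI-linked lists, up to 6 called genes per other list by highest mean, the 2 nearest profiles per factor and overlapping genes, except that some genes are not reported here; Etv5, Trps1, Bhlhe41 and Fgfr3 were named after their values were seen. Members and lists were chosen with earlier results of these data known, so a list's direction is no independent evidence. The study's methods speak of littermates assigned to groups in general, but the labels do not tie these replicates to litters or sorts, and p-values measure the spread between these 6 libraries. For the RNA-seq the study names C57BL/6J mice as controls and Sox9fl/fl mice as KO. Any difference between these mouse lines goes with Sox9 status and cannot be told apart from it. Same-numbered libraries did not deviate together (correlations −0.05, −0.01 and −0.01), so the numbers were not taken as pairs.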

Additional observations from a re-analysis of the deposited data

How the results depend on the processing

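The 8 factors called lower stayed so, and Nfic uncalled, under each alternative for scaling, filter, pseudocount, tool and left-out library. Over these settings the log2 fold change ran from −1.45 to −0.94 for Nfia, −3.43 to −2.88 for Nfib, −2.31 to −1.83 for Nfix, −1.72 to −1.26 for Zbtb20, −5.16 to −4.52 for Lhx2, −3.96 to −3.53 for Rorb, −3.28 to −1.98 for Emx2 and −4.24 to −3.54 for Npas3, while that of Nfic turned to −0.034 (quantile) and −0.069 (total without Rn45s). Scaling moved the split of all calls: 5299 lower and 4090 higher became 6597 and 2630 with total scaling without Rn45s (chosen after seeing the data, median shift −0.31), and 4117 and 5342 with quantile normalization. With the replicate number as a block, 8 factors were again called lower and 0 higher, with 5227 and 4048 genes in all, and no member call changed. In that fit Nfic had a log2 fold change of 0.26 with an adjusted p of 0.047 (limma), and was uncalled because it lay below 1.5-fold. The number of paralogues called higher went from 0 to 1 (Zbtb45) with TMM scaling, edgeR, a minimum mean of 10, no variance trend, quantile normalization and unadjusted p, and ran from 0 to 1 over left-out libraries (1 without control replicate 2).

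The NFI share differences without length scaling were 3.24 points for Nfia, −15.3 for Nfib, 22.5 for Nfic and −10.5 for Nfix. With comprehensive annotation lengths (chosen after seeing the data) they were −1.33 for Nfia, −10.1 for Nfib and −15.3 for Nfix. Nfia ran from −0.037 (without KO replicate 3) to 2.33 over left-out libraries. Against the mean of log2 marker values the differences were 2.90 for Nfia, 2.52 for Zbtb20 and 0.28 for Rorb. Against the marker sum without Slc1a2 and Gfap they were 2.52 for Nfia, 0.42 for Nfib, 3.79 for Nfic, 1.54 for Nfix, 2.13 for Zbtb20, −1.30 for Lhx2 and −0.11 for Rorb. Npas3 ran from −0.37 to 0.11 (without KO replicate 2) over left-out libraries. The causes of these shifts were not tested. Of the values above, that of Emx2 in KO rests on the fewest reads (6 to 68), and 3 libraries a group cannot take a permutation p below 0.10.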

Other observations

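Factors of 2 cell lineages not described in the report were lower in the Sox9 KO pools as well. Of 19 neuron and neuroblast factors 15 were called lower, 0 higher and 4 were not called (limma, median log2 fold change −2.53). The most abundant of those called were Etv1 (log2 fold change −0.65), Tshz1 (−1.36), Sox11 (−3.93), Myt1l (−2.53), Sp8 (−3.29) and Sox4 (−0.69), which act in the bulb's interneurons and their precursors or in neurons at large. Those of Etv1 (without KO replicate 1) and Sox4 (without KO replicate 3, control replicate 1 or control replicate 2) were lost with a library left out. All 9 oligodendrocyte lineage factors were called lower (median −2.60; Zfp488, named after its values were seen, was lost when any of 4 libraries, KO replicates 1 and 3 and control replicates 2 and 3, was left out), with Olig1 at −3.55, Olig2 at −4.14, Sox8 at −2.91, Sox10 at −1.43 and Myrf, a factor of myelin genes, at −2.60. Of all genes tested 28.8% were called lower and 22.2% higher. Among the microglia and macrophage factors Bhlhe41 was the 1 of 14 not called, at a log2 fold change of 0.41. Among the remaining marker lists, 7 of 8 markers of olfactory ensheathing cells were called lower, and 4 of 7 endothelial markers were called lower and 1 higher.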
